A study of Mus musculus with 4 samples.

Results

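The nuclear-encoded genes of mitochondrial oxidative phosphorylation were followed in mouse ear skin treated with imiquimod (IMQ), with or without Traf6 in the epithelium. A gene was included when its single symbol on the array began with Nduf, Sdha to Sdhd, Uqcr or Atp5, or with Cox followed by 4 to 8. This gave 93 of the 19938 genes with a single symbol: 34 subunits of complex I, 4 of complex II, 8 of complex III, 17 of complex IV (Ndufa4 among them) and 17 of complex V, with 11 assembly factors and 2 relatives of a subunit, Ndufa4l2 and Cox7a2l. Membership was decided by names alone and no measured value. For a gene with several probe sets, the one highest on average over the 4 arrays was taken. IMQ is an agonist of Toll-like receptor 7 whose cream produces psoriasis-like inflammation in mouse skin, and Traf6 is an adaptor that relays Toll-like receptor and interleukin receptor signals.

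Whole ears of female mice aged 8 weeks gave the total RNA, which was read on Affymetrix Mouse Gene 1.0 ST arrays. The 4 groups were Traf6EKO mice given IMQ (EKO IMQ), Traf6EKO mice without IMQ (EKO untreated), Traf6f/f mice given IMQ (f/f IMQ) and Traf6f/f mice without IMQ (f/f untreated), with 1 array each. Traf6EKO stands for a Traf6 knockout of the epithelium and Traf6f/f for mice with floxed Traf6. IMQ meant 10 mg of the cream on the ear each day for 2 days, and the labels do not name a vehicle cream for the untreated mice. The series gives n = 2, and the sources used here do not say whether an array pooled animals or which promoter drove Cre. The design sets the response to IMQ of ears lacking epithelial Traf6 against that of ears with it. A single array per group leaves no spread between like samples, so the differences below are differences between arrays, without p-values except where stated.

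Oxidative phosphorylation takes place in the inner mitochondrial membrane. Complexes I and II take electrons from NADH and succinate, complex III passes them to cytochrome c, complex IV hands them to oxygen, and complex V (ATP synthase) uses the resulting proton gradient to make ATP. Most subunits are built from nuclear genes of all tissues, while some of complex IV have a second isoform: Cox6a2, Cox7a1 and Cox8b are the forms of striated muscle, and Cox7a1 and Cox8b are also found in brown fat.

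The promoters of the muscle isoforms Cox7a1 and Cox8b and of their counterparts of general use, Cox7a2 and Cox8a, are shown because the members of each pair differed in opposite directions with IMQ. Cox6a2, the other muscle isoform, is not shown. Each runs 5′ to 3′ on the strand of its gene, from 250 bases before to 50 bases after the start, in RefSeq's table for GRCm38.p6. Capitals mark the letters of an E-box (CANNTG, the motif bound by muscle regulators such as MyoD among other factors), a TATA box (TATAAA) or the core of ETS-family sites (CCGGAAG), each searched on both strands. Cox7a1 is on the plus strand at chr7:30183921-30184220, Cox8b on the minus strand at chr7:140900397-140900696, Cox7a2 on the minus strand at chr9:79759804-79760103 and Cox8a on the minus strand at chr19:7217567-7217866.
Cox7a1: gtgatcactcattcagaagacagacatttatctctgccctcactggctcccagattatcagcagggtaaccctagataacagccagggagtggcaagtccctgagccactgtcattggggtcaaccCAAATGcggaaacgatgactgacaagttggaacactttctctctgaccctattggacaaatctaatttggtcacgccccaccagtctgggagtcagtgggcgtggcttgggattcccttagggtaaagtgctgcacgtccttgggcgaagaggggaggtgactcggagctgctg
Cox8b: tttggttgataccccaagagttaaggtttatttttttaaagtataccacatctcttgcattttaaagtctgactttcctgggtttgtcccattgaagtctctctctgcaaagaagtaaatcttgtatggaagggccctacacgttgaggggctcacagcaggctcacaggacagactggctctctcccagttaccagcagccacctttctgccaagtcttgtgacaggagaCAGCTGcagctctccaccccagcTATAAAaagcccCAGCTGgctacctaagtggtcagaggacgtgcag
Cox7a2: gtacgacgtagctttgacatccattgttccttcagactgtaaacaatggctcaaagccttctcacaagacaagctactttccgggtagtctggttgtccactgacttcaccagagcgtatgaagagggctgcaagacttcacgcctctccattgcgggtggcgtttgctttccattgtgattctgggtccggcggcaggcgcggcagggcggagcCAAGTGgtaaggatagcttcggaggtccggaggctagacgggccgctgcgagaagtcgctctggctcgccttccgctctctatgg
Cox8a: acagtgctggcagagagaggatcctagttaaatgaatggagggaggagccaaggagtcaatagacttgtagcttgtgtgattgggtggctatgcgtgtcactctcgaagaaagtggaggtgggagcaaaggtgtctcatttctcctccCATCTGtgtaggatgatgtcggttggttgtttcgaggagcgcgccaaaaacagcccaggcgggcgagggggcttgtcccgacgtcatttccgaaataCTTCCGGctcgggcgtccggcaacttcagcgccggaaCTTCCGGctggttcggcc

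The Cox7a1 window held 7 CpG dinucleotides and 1 E-box, and the Cox8b window held 2 CpG, 2 E-boxes and 1 TATA box. Their counterparts were richer in CpG, with 20 in Cox7a2, which had 1 E-box, and 19 in Cox8a, which had 1 E-box and 2 ETS cores. RefSeq windows were found for 77 of the 93 genes, 82 windows in all. The median window of these genes held 20 CpG, against 7 over all 32851 windows of 27025 genes. The core of the site of nuclear respiratory factor 1 (GCGCATGC), a factor known to act on respiratory chain genes, was present in 14.6% of the windows of these genes and 2.71% of all windows. The ETS core, which is also that of GABP, was in 25.6% and 8.86%, the E-box in 67.1% and 72.3%, and the TATA box in 12.2% and 13.6%. The cores of nuclear respiratory factor 1 and of ETS sites each contain a CpG, and windows of like CpG content were not compared. Their higher shares thus cannot be told apart from the higher CpG content. Motifs may overlap, a match is not a bound site, and no binding was measured.

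Over the 93 genes the median level was 9.32 on the log2 scale of the array, against 6.96 over all genes, and single genes lay between 4.07 (Cox7b2) and 12.5 (Atp5d) on average. The levels of 80 genes were at or above the array's median over all named genes, used as a floor of 6.93 to 6.98, on all 4 arrays, and those of 11 were below it on all arrays. These 11 were Cox4i2, Cox6b2, Cox7b2, Cox8c, Ndufaf2, Ndufaf5, Ndufaf6, Ndufaf7, Ndufb2, Ndufb3 and Sdhaf4. Ndufa1 and Ndufaf4 passed it on some arrays only. Array medians were 6.52 to 6.57, and pairs of arrays correlated at 0.981 to 0.995 over all genes. The Traf6 probe set read 9.35 in EKO IMQ, 9.65 in EKO untreated, 9.30 in f/f IMQ and 9.51 in f/f untreated ears, so the knockout was not visible at the level of whole ears. Where its probes lie relative to the floxed exons was not examined, and these values check no label.

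In EKO skin, IMQ went with small differences in most genes of the respiratory chain, and Ndufa4l2 stood highest. With IMQ, 59 of the 93 genes were higher than without, and the median difference was 0.046 log2, against -0.013 over all genes above the floor on at least 1 of these arrays. After quantile normalization of the deposited values, 53 were higher and the median was 0.028. None of the 81 above the floor was 2-fold different, against 0.671% of the 10285 genes above the floor that were 2-fold higher and 0.0972% that were 2-fold lower. Ndufa4l2 alone was at least 1.5-fold higher, against 2.66% of all genes, and none was 1.5-fold lower, against 0.807%. Of the 81 genes above the floor, 52 (64.2%) were above 0, against 47.1% of all genes.

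In f/f skin, IMQ went with somewhat larger differences and with lower levels of the 3 muscle isoforms of complex IV. Of the 93 genes, 57 were higher with IMQ than without, and the median difference was 0.10 log2, against 0.0052 over all such genes. After quantile normalization of the deposited values, 51 were higher and the median was 0.033, against -0.0011 over all such genes. Of the 82 above the floor, none was 2-fold higher or more, and 1, Cox8b, was 2-fold lower or more. Among the 10548 genes of the whole array that passed this floor, the shares past 2-fold were 3.82% on the higher and 2.63% on the lower side. At a limit of 1.5-fold, Ndufa4l2 and Ndufaf4 were higher, against 10.2% of all genes, and Cox6a2, Cox7a1, Cox8b, Ndufa6 and Ndufaf1 were lower, against 9.53%. Both counts were below the share of all genes. Of the 82, 52 (63.4%) were above 0, against 50.6% of all genes.

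**Figure D1:**
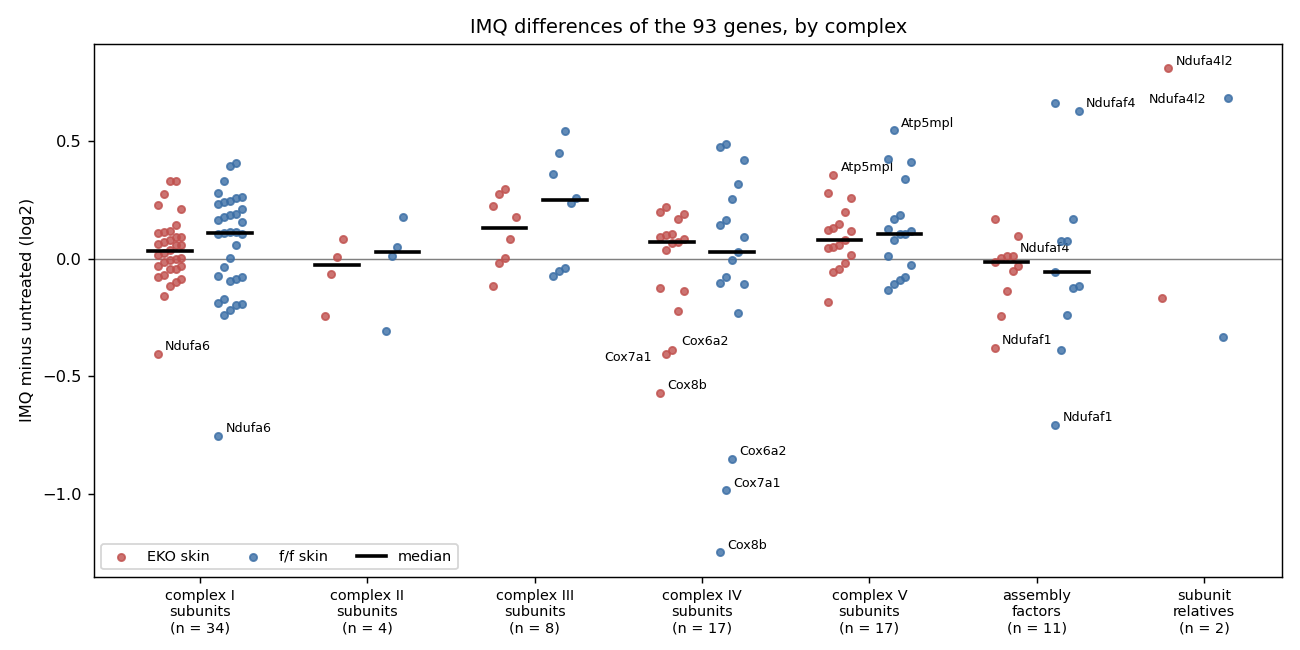
IMQ minus untreated level (log2) of each of the 93 genes, by complex, in EKO skin (red) and f/f skin (blue); each point is a gene and the bars are medians of groups with more than 2 genes. Most points lie within 0.5 of 0, Cox8b lies lowest and Ndufa4l2 highest in both genotypes.

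Complex I, the NADH dehydrogenase, had 21 of 34 subunits higher with IMQ in EKO skin (median 0.032) and 22 of 34 in f/f skin (median 0.11). Ndufv1, which carries the NADH-binding site, was at 9.95 with and 9.85 without IMQ in EKO ears and at 9.95 and 9.84 in f/f ears. The iron-sulfur subunit Ndufs1 was at 8.63 with and 8.70 without IMQ in EKO ears and at 8.73 and 8.81 in f/f ears. Both core subunits thus differed by at most 0.11 log2 with treatment. The subunit furthest from 0 was Ndufa6, a small accessory subunit of the matrix arm. Its level was 9.07 with and 9.47 without IMQ in EKO ears and 8.89 and 9.64 in f/f ears, differences of -0.40 and -0.75 log2. The highest complex I subunits, named after their values were seen, were Ndufc1 in EKO skin, at 0.33, and Ndufb8 in f/f skin, at 0.41; Ndufb8 was at 0.11 in EKO skin and Ndufc1 at 0.21 in f/f skin.

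Complex II, the succinate dehydrogenase shared with the citric acid cycle, had 2 of 4 subunits higher with IMQ in EKO skin and 3 of 4 in f/f skin, with medians of -0.028 and 0.030. Sdha, the flavoprotein that oxidises succinate, was at 10.03 with and 10.28 without IMQ in EKO ears and at 10.00 and 10.31 in f/f ears. The IMQ difference was -0.24 in EKO and -0.31 in f/f skin. The iron-sulfur subunit Sdhb differed by -0.064 in EKO and 0.0094 in f/f skin, and the membrane anchor Sdhd by 0.083 and 0.18.

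Complex III, the cytochrome bc1 complex, had the highest median of the 5 complexes in both genotypes, 0.13 in EKO and 0.25 in f/f skin, with 6 and 5 of 8 subunits higher. The core protein Uqcrc1 was at 10.81 with and 10.51 without IMQ in EKO ears and at 10.79 and 10.34 in f/f ears. The small subunit Uqcr11 was at 9.07 and 8.80 in EKO ears and at 9.16 and 8.62 in f/f ears, a difference of 0.28 and 0.54. The Rieske iron-sulfur protein Uqcrfs1 differed by 0.084 in EKO and 0.26 in f/f skin. Uqcrc2, the second core protein, went the other way, with -0.11 in EKO and -0.053 in f/f skin, so the subunits of this complex did not move as a block.

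Complex IV, cytochrome c oxidase, held the lowest IMQ differences of the 93 genes. Its median was 0.072 in EKO skin, with 11 of 17 subunits higher, and 0.029 in f/f skin, with 9 of 17 higher. These 17 include Cox4i2, Cox6b2, Cox7b2 and Cox8c, which were below the floor on all 4 arrays. Over the 13 subunits at or above the floor, the median in f/f skin was 0.14, with 8 higher. The catalytic core of this complex is encoded by mitochondrial DNA, and the nuclear subunits tune and stabilise it. Cox5a, which is present in all tissues, differed by 0.092 in EKO and 0.14 in f/f skin, and Cox4i1, the general form of subunit IV, by 0.099 and 0.32. Cox6b1, on the intermembrane side, differed by 0.066 in EKO and 0.42 in f/f skin. Cox6c was lower with IMQ, with differences of -0.13 in EKO and -0.23 in f/f skin.

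The 3 muscle isoforms of complex IV and their counterparts differed in opposite directions with IMQ in both genotypes. Cox8b was at 9.91 with and 10.48 without IMQ in EKO ears and at 9.50 and 10.75 in f/f ears, 1.48-fold and 2.38-fold lower. Its counterpart Cox8a was at 10.61 and 10.42 in EKO ears and at 10.67 and 10.50 in f/f ears. Cox8b was thus lower on both IMQ arrays, and Cox8a slightly higher on both. Cox7a1 was at 9.29 with and 9.69 without IMQ in EKO ears and at 8.92 and 9.90 in f/f ears, 1.32-fold and 1.98-fold lower. Its counterpart Cox7a2 was at 9.60 and 9.40 in EKO ears and at 9.77 and 9.52 in f/f ears. The lowest of the 4 arrays for Cox7a1 was f/f IMQ, which was the highest for Cox7a2. Cox6a2 was at 9.74 with and 10.13 without IMQ in EKO ears and at 9.34 and 10.19 in f/f ears, 1.31-fold and 1.80-fold lower. Its counterpart Cox6a1 was at 9.73 and 9.51 in EKO ears and at 9.80 and 9.33 in f/f ears. The IMQ difference of the muscle form minus that of its counterpart was -0.61 in EKO and -1.32 in f/f skin for subunit 6a, -0.60 and -1.24 for subunit 7a, and -0.76 and -1.41 for subunit 8. Levels of different probe sets are not comparable with each other, so only their differences between arrays were set side by side.

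The muscle and fat marker genes of the ear moved with these isoforms. All 36 skeletal muscle markers were lower with IMQ in both genotypes, with medians of -0.33 in EKO and -0.90 in f/f skin, and 0 and 14 of them were at least 2-fold lower. Their summed level (log2 of the sum of linear values) was 15.4 in EKO IMQ, 15.7 in EKO untreated, 15.0 in f/f IMQ and 15.9 in f/f untreated ears. Single muscle markers ranged from 6.74 to 12.5 over the 4 arrays; 35 of 36 were at or above the floor in f/f IMQ ears and all 36 on each other array. The creatine kinase Ckm differed by -0.25 in EKO and -0.88 in f/f skin, and skeletal actin Acta1 by -0.21 and -0.66. Of 18 measured adipocyte markers, 17 were lower with IMQ in EKO skin (median -0.29) and 16 in f/f skin (median -0.996). Their summed level was 14.1 in EKO IMQ, 14.4 in EKO untreated, 13.7 in f/f IMQ and 14.8 in f/f untreated ears. Ucp1, the uncoupling protein of brown fat, stayed between 4.97 and 5.08, below the floor on all 4 arrays. The part of muscle and fat in the isoform values was not tested. In whole ears, fewer cells of a type and less RNA per cell cannot be told apart.

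**Figure D2:**
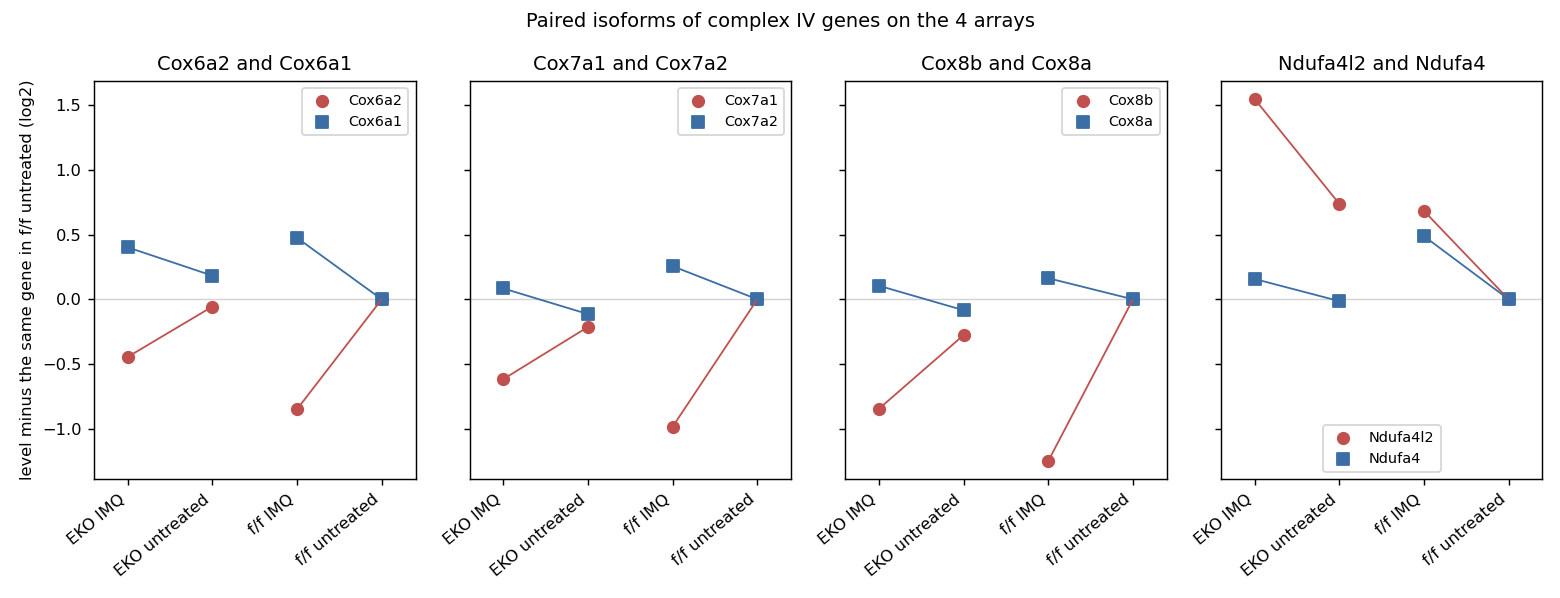
Level of each gene minus its own level in f/f untreated ears (log2) on the 4 arrays, for the muscle isoforms and Ndufa4l2 (red circles) and their counterparts (blue squares); lines join the arrays of a genotype. Cox6a2, Cox7a1 and Cox8b are lowest in f/f IMQ, and Ndufa4l2 is highest in EKO IMQ.

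The other isoforms with a restricted pattern gave little signal. Cox4i2, the form of lung and smooth muscle, and the testis forms Cox6b2, Cox7b2 and Cox8c were below the floor on all 4 arrays, between 4.01 and 6.90. Their IMQ differences lay between -0.22 and 0.11 in EKO skin and between -0.11 and 0.029 in f/f skin.

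Ndufa4l2, a paralogue of Ndufa4 known as a target of hypoxia-inducible factors, had the highest IMQ difference of the 93 genes. Its level was 8.79 in EKO IMQ, 7.98 in EKO untreated, 7.92 in f/f IMQ and 7.24 in f/f untreated ears. It was higher with IMQ by 0.81 in EKO and 0.68 in f/f skin, and higher in EKO than in f/f ears by 0.86 with IMQ and 0.74 without. The EKO untreated and f/f IMQ arrays thus had nearly the same level, and the highest and lowest arrays were 1.55 log2 apart. Ndufa4, a subunit of complex IV once assigned to complex I, differed by 0.17 in EKO and 0.49 in f/f skin with IMQ, and by -0.33 with IMQ and -0.014 without it between EKO and f/f ears. Cox7a2l, which helps join complexes III and IV, was lower with IMQ, at -0.17 in EKO and -0.33 in f/f skin.

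Complex V, the ATP synthase, had 13 of 17 subunits higher with IMQ in EKO skin (median 0.080) and 12 of 17 in f/f skin (median 0.11). The catalytic subunit Atp5b was at 12.13 with and 12.01 without IMQ in EKO ears and at 12.18 and 12.06 in f/f ears, which was higher by 0.12 in each. The other subunit of the catalytic head, Atp5a1, differed by -0.017 in EKO and 0.081 in f/f skin. Atp5mpl, a small proteolipid of the membrane part, was at 8.85 and 8.49 in EKO ears and at 9.08 and 8.54 in f/f ears, a difference of 0.36 and 0.55. The 3 genes for the c-ring, whose mature proteins are alike, did not differ equally. Atp5g1 differed by 0.13 in EKO and 0.19 in f/f skin, Atp5g2 by 0.059 and 0.10, and Atp5g3 by 0.26 and 0.42. Atp5c1, the central stalk, was lower with IMQ, at -0.18 in EKO and -0.13 in f/f skin.

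The assembly factors, which build the complexes without staying in them, had 5 of 11 members higher with IMQ in each genotype, with medians of -0.012 in EKO and -0.056 in f/f skin. Ndufaf1, a complex I factor, was at 7.91 with and 8.29 without IMQ in EKO ears and at 7.88 and 8.59 in f/f ears, differences of -0.38 and -0.71. Ndufaf4, another complex I factor, was at 6.83 and 6.82 in EKO ears and at 7.42 and 6.79 in f/f ears. Only the f/f IMQ array lay above the floor for Ndufaf4. Ndufaf2 was below the floor on all arrays, with an IMQ difference of 0.17 in EKO and 0.66 in f/f skin. Of the complex II factors, Sdhaf1 differed by -0.053 in EKO and 0.17 in f/f skin and Sdhaf4 by 0.095 and -0.24, and Sdhaf4 was below the floor throughout.

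The IMQ differences of the 2 genotypes come from different arrays and can be set against each other. Over the 93 genes they correlated at r = 0.823 (Spearman's rho = 0.786), 75 of 93 had the same sign and 75 were smaller in size in EKO skin, each 80.6%. Without Cox6a2, Cox7a1, Cox8b, Cox4i2 and Ndufa4l2, r was 0.758 over 88 genes. Over all 19938 genes r was 0.735, 70.2% had the same sign and 69.9% were smaller in EKO skin. No floor was applied here, and the median level was 6.96 over all genes and 9.32 over the 93. The shares are thus not of genes at like levels. The r values are correlations across genes of arrays normalised together, and genes are not replicates.

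**Figure D3:**
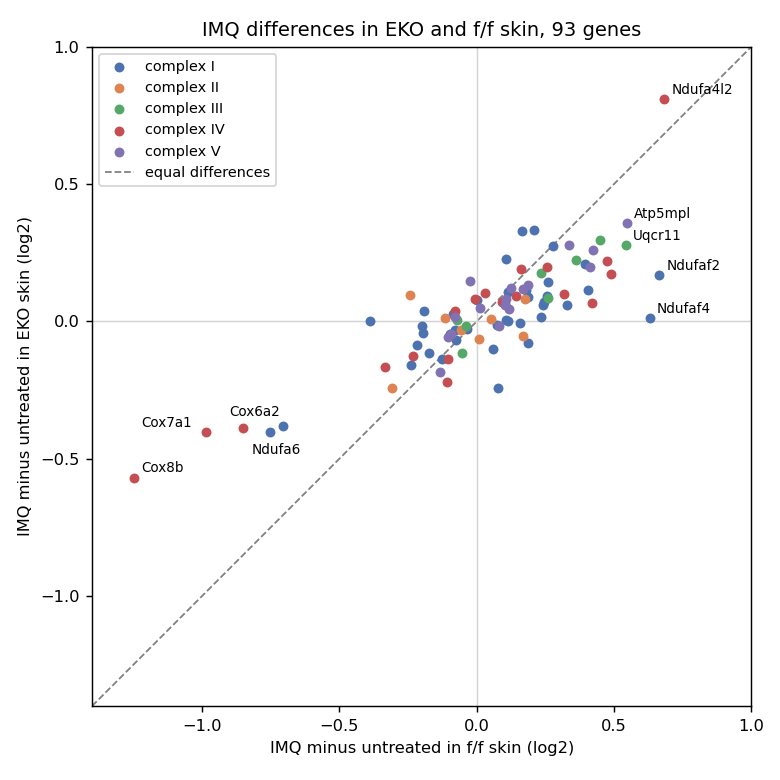
IMQ minus untreated level (log2) in EKO skin (vertical) against f/f skin (horizontal), 1 point per gene, coloured by complex; the dashed line marks equal differences. The points of 75 of 93 genes are closer to 0 in EKO skin than in f/f skin.

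The genotypes were then compared within each treatment. With IMQ, 25 of the 93 genes were higher and 68 lower in EKO than in f/f skin, and the median was -0.059. No gene was 2-fold different, against 0.418% of the 10282 genes above the floor that were higher and 0.875% that were lower. Ndufa4l2 was 1.5-fold higher, against 2.03% of all genes, and Ndufaf4 1.5-fold lower, against 2.61%. Of the 82 genes above the floor, 21 (25.6%) were above 0, against 49.1% of all genes. The lower values were spread over the complexes, with medians of -0.051 in complex I, -0.014 in complex II, -0.14 in complex III, -0.061 in complex IV and -0.087 in complex V. In complex V, 16 of 17 subunits were lower in EKO, and in complex III 7 of 8. In complexes V and III the sizes were small, and the lowest, Atp5g3 and Uqcrfs1, differed by -0.26 and -0.24. Lower values elsewhere were those of Ndufaf4 at -0.59, Ndufa4 at -0.33, Cox6b1 at -0.31 and Sdhd at -0.30. For Atp5g2, Atp5h and Uqcr11 the sign here disagreed between the probe sets of the gene. Among the 25 genes higher in EKO were Ndufa4l2 (0.86), Cox6a2 (0.40), Cox8b (0.40) and Cox7a1 (0.37). Muscle markers were also higher in EKO with IMQ, 34 of 36 with a median of 0.45, and their part in these values was not tested. The comparisons with and without IMQ use different arrays, while each shares arrays with the IMQ comparisons.

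EKO and f/f skin without IMQ differed little in these genes, more of which were lower in EKO skin. Of the 93 genes, 31 were higher and 62 lower in EKO, and the median was -0.045 log2. With each array centred on its median, 39 were higher and the median was -0.014. Under that scaling 63.1% of all genes above the floor were above 0, with a median of 0.050. The median of the 93 genes minus that of all genes was -0.064 with and without the centring. None was 2-fold different, against 0.0686% of the 10200 genes above the floor that were higher and 0.324% that were lower. Ndufa4l2 alone was 1.5-fold higher, against 0.647% of all genes, and none was 1.5-fold lower, against 1.06%. Of the 80 genes above the floor, 26 (32.5%) were above 0, against 55.1% of all genes. The lowest was Ndufa2, an accessory subunit of complex I, at 7.79 in EKO untreated and 8.13 in f/f untreated ears, a difference of -0.34.

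**Figure D4:**
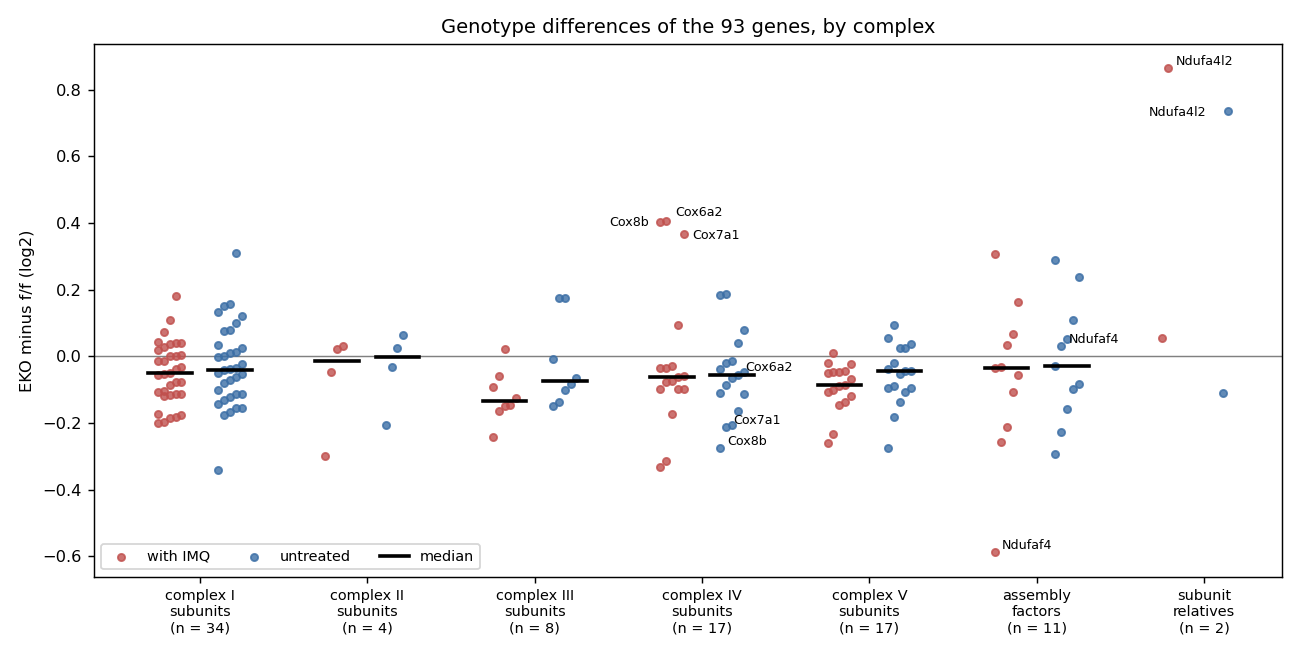
EKO minus f/f level (log2) of each of the 93 genes, by complex, with IMQ (red) and untreated (blue); each point is a gene and the bars are medians of groups with more than 2 genes. In all 5 complexes the medians are below 0 in both, that of complex II without IMQ only just, and Ndufa4l2 is highest in both.

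The IMQ difference in EKO minus that in f/f skin was above 0 for 39 of the 93 genes, with a median of -0.040. After quantile normalization of the deposited values it was above 0 for 48 of 93, with a median of 0.0065, and after cyclic loess for 45, with a median of -0.0090, so its direction rests on the scaling. None passed 2-fold, against 1.06% of 10646 genes in the positive and 1.18% in the negative direction. At 1.5-fold, Cox8b was above 0 at 0.68, against 3.65% of all genes, and Ndufaf4 below 0 at -0.62, against 4.63%. Of 82 genes above the floor, 34 (41.5%) were above 0, against 46.7% of all genes. This difference was 0.58 for Cox7a1 and 0.46 for Cox6a2, and 34 of 36 muscle markers were also above 0, with a median of 0.62.

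The IMQ effect averaged over the genotypes was fitted in limma over 10646 genes, with the difference between the genotypes as the only measure of error and 1 residual degree of freedom. These p-values hold no spread between like arrays. At an adjusted p threshold of 0.05 no gene was called (0% of 10646), and none of the 82 members. At an unadjusted p below 0.05 were 2808 genes (26.4%) and 13 members (15.9%), 8 higher and 5 lower. The smallest adjusted p in limma among the members was 0.162, with Ndufa4l2 at 0.75 ± 0.093 (SE), Cox8b at -0.91 ± 0.20, Ndufaf1 at -0.54 ± 0.12 and Ndufa6 at -0.58 ± 0.14. The genotype effect averaged over treatments gave no call either (0%), with 344 genes and 1 member, Ndufa4l2 at 0.80 ± 0.093, at an unadjusted p below 0.05. The smallest adjusted p in limma for a member was 0.999 there.

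Related mitochondrial lists are given by their counts and medians. Of 77 mitochondrial ribosomal proteins, which make the subunits encoded by mitochondrial DNA, 56 were higher with IMQ in EKO skin (median 0.065) and 67 in f/f skin (median 0.22). Between the genotypes with IMQ, 66 of the 77 were lower in EKO, with a median of -0.13. The array named 2 subunits of mitochondrial DNA, ND3 of complex I and the cytochrome oxidase subunit listed as COX2, which here is not the prostaglandin enzyme. ND3 differed with IMQ by -0.085 in EKO and -0.37 in f/f skin, and COX2 by 0.038 and -0.22. Both were thus lower with IMQ in f/f skin, where the nuclear subunits had medians of 0.11 in complex I and 0.029 in complex IV. The complex IV median was 0.14 over its 13 subunits at or above the floor. Of all nuclear subunits of complexes I and IV, 12 of 34 and 8 of 17 were lower too, Cox6c among them at -0.23. Values of ND3 and COX2 under other normalizations were not examined, so these 2 genes do not set the mitochondrial subunits apart. Of 35 assembly factors under other names, 21 were higher with IMQ in EKO skin and 20 in f/f skin, with medians of 0.0086 and 0.052. Electron carriers and feeder enzymes had 9 of 15 higher in each genotype, the largest in f/f skin being the glycerol phosphate dehydrogenase Gpd2 at 0.78, with 0.23 in EKO skin. Cyc1, the cytochrome c1 of complex III, lies outside the naming rule and differed by 0.21 in EKO and 0.53 in f/f skin, close to Uqcr11.

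Fuel pathways upstream of the chain differed in direction by list. Citric acid cycle and pyruvate dehydrogenase genes had 5 of 18 higher with IMQ in EKO skin and 7 of 18 in f/f skin, with medians of -0.13 and -0.12. Fatty acid oxidation had 11 of 15 higher in EKO (median 0.13) and 10 of 15 in f/f skin (median 0.12), though Acadm, the medium-chain dehydrogenase, was at -0.41 and -0.97. Glycolysis had 10 of 14 higher in EKO (median 0.17) and 9 of 14 in f/f skin (median 0.29). The glucose transporter Slc2a1 was at 10.44 with and 9.87 without IMQ in EKO ears and at 10.90 and 9.55 in f/f ears. The muscle phosphofructokinase Pfkm differed by -0.33 in EKO and -0.99 in f/f skin.

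Regulators of mitochondrial biogenesis and carriers of the inner membrane split by gene. Over 19 regulators the median was near 0 in both genotypes, with 9 higher in EKO and 10 in f/f skin. Ppargc1a, the coactivator prominent in muscle and brown fat, differed with IMQ by -0.32 in EKO and -0.65 in f/f skin, and Pprc1, a related coactivator of growing cells, by 0.43 and 0.90. The ATP/ADP carriers split the way the muscle isoforms of complex IV and their counterparts did. Slc25a4, the form of muscle and heart, was at 10.27 with and 10.71 without IMQ in EKO ears and at 10.11 and 10.95 in f/f ears. Slc25a5, the form of growing cells, was at 11.75 and 11.40 in EKO ears and at 11.88 and 11.20 in f/f ears. Slc25a4 was thus lower and Slc25a5 higher on both IMQ arrays, with the larger gaps in f/f skin.

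**Figure D5:**
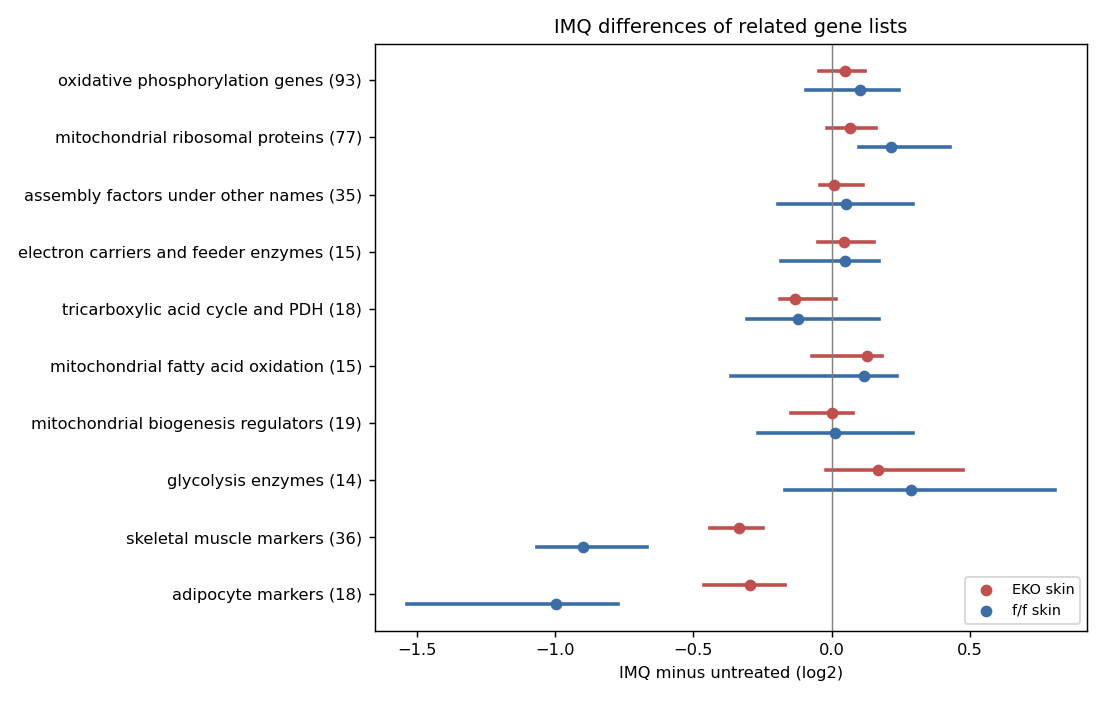
Median (points) and range from the lower to the upper quartile (bars) of the IMQ minus untreated level (log2) of the 93 genes and of related lists, in EKO skin (red) and f/f skin (blue), with the number of measured genes in brackets. Muscle and adipocyte markers lie below 0 in both genotypes, and mitochondrial ribosomal proteins above it.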

How the data were processed

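The deposited table holds 1 log2 level per probe set and array. The authors made it with RMA, per the submitters' processing notes, whose version is not given in the sources used; RMA corrects background, quantile-normalizes and summarises probes. RMA brings the arrays' distributions close together, which hides a shift common to most genes, and it compresses low signals. The deposited distributions were not equal. Array medians ran from 6.52 to 6.57, and a further quantile normalization moved named values by up to 0.15 log2. Of 35556 probe sets, 21789 had 1 gene symbol in the platform annotation, 1621 had several, 12146 had no entry, and probe sets with 1 symbol were kept. This gave 19938 genes; for the 999 with several probe sets, the one highest on average was taken. The 93 members came from 119 probe sets, and all 93 symbols were the same in RefSeq. Of the 18 members with several probe sets, the sign of the IMQ difference disagreed between them for 2 in EKO and 4 in f/f skin. The sign of the genotype difference disagreed for 5 with IMQ, by up to 0.37 log2, and for 3 without. A further 6 probe sets listed a member among several symbols and were not used. Near-identical copies and pseudogenes may share probes, and their part was not tested.

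Log2 differences between single arrays were computed in Python 3.11.15. A gene entered a count of 2-fold differences when it reached the array's median over named genes on at least 1 array compared. Averaged effects were fitted with limma 3.58.1 in R 4.3.3 (intensity trend, Benjamini-Hochberg). Data of 10646 genes were simulated for the averaged IMQ effect. Genes of like level were given the same normal spread, and changed genes changed equally in both genotypes. Genotype differences particular to a gene were not simulated. In these data limma recovered 32%, 90%, 100% and 100% of 50 genes changed by 0.5, 1, 2 and 3 log2. It called 30 of 10446 unchanged genes there. On the measured arrays limma called 0 of 10646 genes for this effect. All 16 stress keratinocyte markers were higher with IMQ in both genotypes, with medians of 1.64 in EKO and 3.79 in f/f skin. Recovery on the measured arrays was not tested. Named members were the 2-fold ones, the 2 lowest and 2 highest per complex in the f/f IMQ difference, isoform pairs, core subunits and the 5 smallest adjusted p per limma fit. Genes named from other lists were among the 2 lowest and 2 highest in the f/f IMQ difference, or were Acta1, Ckm, Adipoq, Plin1 or Ucp1. Not all of these extremes are named, so a named gene need not be the furthest from 0 in its list. Members and lists were chosen with earlier results of these data known. Alternatives were other normalizations, the mean of probe sets, no floor, a 1.5-fold limit, subunits alone and other limma settings. The number of arrays limits the precision.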

Additional observations from a re-analysis of the deposited data

Results flagged for a closer look

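For 2 genes the genotype difference pointed opposite ways with and without IMQ, by at least 0.2 log2 each. Cox7a1 differed between EKO and f/f skin by 0.37 with IMQ and by -0.21 without, values that lie 0.58 log2 apart. Cox8b differed by 0.40 with IMQ and by -0.28 without, 0.68 log2 apart. Each value rests on 1 array per group, and the difference was not tested. Muscle markers had medians of 0.45 with IMQ and -0.14 without in the same comparison, and adipocyte markers 0.37 and -0.44; their part in the 2 genes was not tested.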

How the results depend on the processing

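No paired analysis was possible because each group holds 1 array. The count of 1 gene at least 2-fold different with IMQ in f/f skin became 2, both lower, after quantile normalization or cyclic loess of the deposited values. With a 1.5-fold limit it became 7, and the counts of 0 became 1 for IMQ in EKO skin, 1 for EKO against f/f untreated, 2 for EKO against f/f with IMQ and 2 for the difference of the IMQ differences. The median of that last difference, -0.040, was 0.0065 after quantile normalization, and its range was -0.080 to 0.0065. Over 7 alternatives each, the other medians kept their sign: 0.028 to 0.061 for IMQ in EKO skin, 0.033 to 0.16 for IMQ in f/f skin, -0.067 to -0.014 for EKO against f/f untreated and -0.067 to -0.044 with IMQ. Of 215 named values, 9 moved by more than 0.1 log2 after quantile normalization, 2 after cyclic loess, 4 with the mean of probe sets and 0 with median centring. Signs changed for 13, 9, 3 and 9 of them, the largest of these values being 0.12 in size. limma called 0 genes under every setting run; the smallest adjusted p in limma ranged from 0.14 to 0.213 for IMQ. Levels near the floor are compressed.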

Other observations

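The epidermal and myeloid lists were described only as a background to the other values. They were chosen with earlier results of these data known, so they are no independent measure of how the ears responded. All 16 stress keratinocyte markers were higher with IMQ in both genotypes, with medians of 1.64 in EKO and 3.79 in f/f skin. Lce3e, a cornified envelope gene, was at 9.38 with and 6.27 without IMQ in EKO ears and at 10.16 and 4.36 in f/f ears. All 16 were lower in EKO than in f/f skin with IMQ, with a median of -0.88, and 14 of 16 were higher without it, with a median of 0.41. Basal and suprabasal keratinocyte markers had 6 of 12 higher with IMQ in EKO skin and 8 of 12 in f/f skin. Myeloid markers had 7 of 11 higher in EKO and 8 of 11 in f/f skin. The highest in f/f skin, S100a8, also in the keratinocyte stress list, differed by 1.36 in EKO and 5.01 in f/f skin. The lowest in f/f skin were Lyz2, at -0.16 in EKO and -0.72 in f/f skin, and Csf1r, at -0.25 and -0.50.

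Among adipocyte markers Adipoq differed with IMQ by -0.60 in EKO and -1.94 in f/f skin and Plin1 by -0.48 and -1.56, while Cidea differed by 0.33 and 0.43. The uncoupling protein Ucp3, a muscle form, differed by -0.18 and -0.71, and the outer membrane channel Vdac2 differed by -0.11 and 0.26.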
